A study of Mus musculus with 17 samples.

Results

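IgM+CD138+ cells from the spleens of c-myb h/h mice were compared with the same cells from control mice on 6 arrays, 3 for each genotype, out of 17 arrays in the series. The arrays were chosen by their labels alone, as all those whose cell type reads IgM+CD138+. Both genotypes lacked the LDL receptor (LDL-R KO), which makes mice prone to atherosclerosis, and both ate a high cholesterol diet for 12 weeks. Control mice carry LDL-R KO alone and the others c-myb h/h as well, and the design text describes a separate mouse for each replicate. The labels used here state neither age nor sex. The other 11 arrays hold B220+CD23+ cells (6) and B220+CD23-IgM+ cells (5) of the same genotypes.

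CD138 (syndecan-1) is carried by plasmablasts and plasma cells, the B-lineage cells that secrete antibody, and IgM is the antibody class that such spleen cells make before class switching. Each B-cell clone transcribes one rearranged heavy chain gene and one light chain gene, built from the many V segments of the heavy chain, kappa and lambda loci, so the V segments in a pool of secreting cells depend on which clones it holds. Myb, the gene altered in c-myb h/h mice, encodes a transcription factor needed for early lymphocyte development. In bulk samples such as these, fewer cells of a type and less RNA per cell cannot be told apart.

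Single rows of the deposited table cannot be given gene names, because the values are displaced along the list against the probe IDs. With names as paired, rows of gene families used by nearly every cell (such as ribosomal and proteasome genes, 315 rows) were dimmer than rows of families expressed in few tissues (olfactory receptors among them, 1680 rows), a difference of -0.28. Read from earlier rows, with a displacement growing evenly to 370 rows at the end of the list, the same families differed by 2.08 log2, against at most 0.57 for displacements over 100 rows away. The list runs along the chromosomes, so blocks of neighbouring rows can still be tied to large gene clusters. Changed rows are therefore given by their listed row number, and only blocks are given a locus. For called rows at most the chromosome of the surrounding stretch is given. No sequence is shown, since no changed row can be matched to one.

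The immunoglobulin loci, the main products of antibody-secreting cells, were checked first. The 15 IDs paired with heavy chain genes lay at listed rows 12726 to 12841 (chromosome 12), and their displaced place, widened by 50 rows on each side, was rows 12599 to 12813. There 95 of 153 tested rows were at least 4-fold higher in control IgM+CD138+ cells than in control B220+CD23+ cells, compared with 482 of all 19350 tested rows. The first kappa block (rows 30168 to 30312, chromosome 6) held 33 such rows of 92, the second kappa block (rows 31056 to 31217, chromosome 6) 51 of 103, and the lambda block (rows 17351 to 17451, chromosome 16) 5 of 61. The median log2 level of the heavy chain block lay between 10.34 and 10.88 on the 6 IgM+CD138+ arrays, and between 7.18 and 7.60 on the B220+CD23+ arrays. The medians of the first and second kappa blocks were 8.08 to 8.32 and 8.91 to 9.78 on the IgM+CD138+ arrays. On the B220+CD23+ arrays they were 6.93 to 7.18 and 6.70 to 6.94. High levels of the heavy chain and kappa blocks were thus seen on all 6 arrays, in both genotypes. The lambda block was no brighter, with medians of 6.53 to 6.84 on the IgM+CD138+ and 6.74 to 6.95 on the B220+CD23+ arrays.

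Replicate 1 stood apart within both genotypes. The first principal component of the 6 arrays held 29.4% of the variance and placed control replicate 1 at -26.6 and c-myb h/h replicate 1 at -24.3, with the other arrays between 1.72 and 27.7. The second component held 23.6% and separated the genotypes, control arrays scoring from -21.3 to -10.9 and c-myb h/h arrays from 13.9 to 20.0. The 98 rows that were at least 4-fold lower in control IgM+CD138+ than in control B220+CD23+ cells averaged 6.60, 7.26 and 7.52 log2 on control replicates 1, 2 and 3, and 6.19, 7.01 and 6.94 on c-myb h/h replicates 1, 2 and 3. The same rows averaged 9.36 to 9.47 on control B220+CD23+ arrays. Of each genotype, replicate 1 thus had the lowest level of rows that mark the CD23+ B cells. The 298 rows outside the blocks that were at least 4-fold higher in control IgM+CD138+ cells averaged 8.85 and 8.83 on the replicate 1 arrays and 8.68 to 8.75 on the other 4. These row sets were chosen on the control arrays, so their levels are a description.

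**Figure D1:**
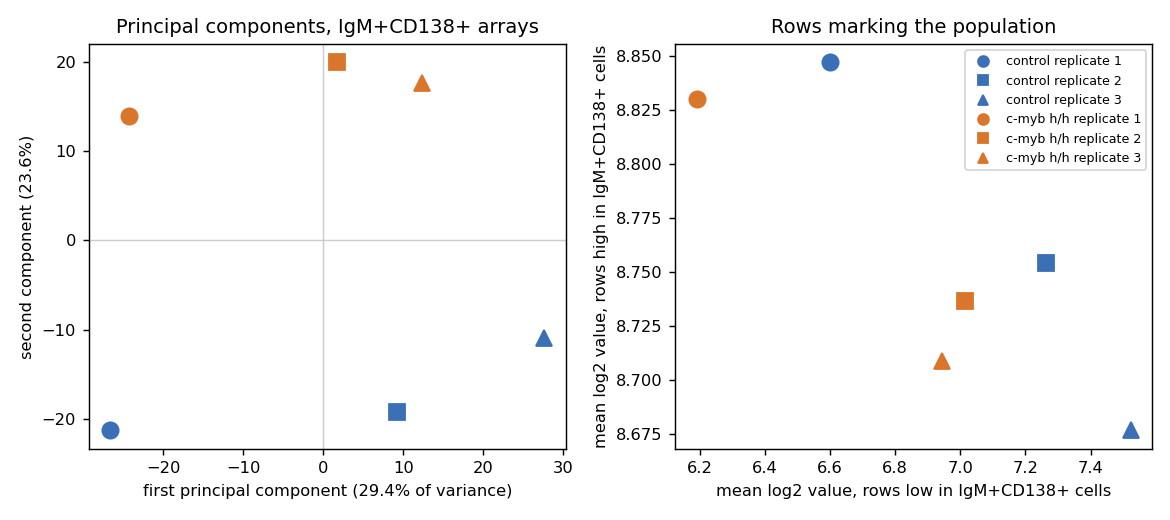
Left, scores of the 6 IgM+CD138+ arrays on the first and second principal components over the tested rows; right, mean log2 value of the 98 rows low and the 298 rows high in control IgM+CD138+ cells relative to control B220+CD23+ cells. Colour gives the genotype and symbol the replicate, and the replicate 1 arrays of both genotypes lie together, at -26.6 and -24.3 on the first component.

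Between genotypes, 37 of 19350 rows differed in IgM+CD138+ cells (limma, Benjamini-Hochberg adjusted p under 0.05), which is 0.191% of the rows tested. In c-myb h/h cells 19 were higher (0.0982% of rows) and 18 lower (0.093%), 12 of each by at least 2-fold, and the called differences ran from -3.30 to 3.32 log2. In all 37 rows the 3 c-myb h/h arrays lay entirely above or below the 3 control arrays, as they did in 10.8% of all tested rows. The median difference over all tested rows was 0.0034 log2, with a median SE of 0.14. The fit takes one spread per row from all 3 populations, so its SE and p understate the spread of rows that vary mainly in IgM+CD138+ cells. With the 6 IgM+CD138+ arrays alone limma called 0 rows, with a lowest adjusted p of 0.138. There 1166 of the 19350 rows had an unadjusted p under 0.05. All 37 were among them, but they had been chosen on these same arrays, so this adds no support. Without both replicate 1 arrays 98 rows were called, 30 of the 37 among them, row 37520 and row 21002 not (limma adjusted p = 0.0536 and 0.0522). The count was 83 without control replicate 1, 64 without control replicate 3 and 68 without c-myb h/h replicate 1.

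**Figure D2:**
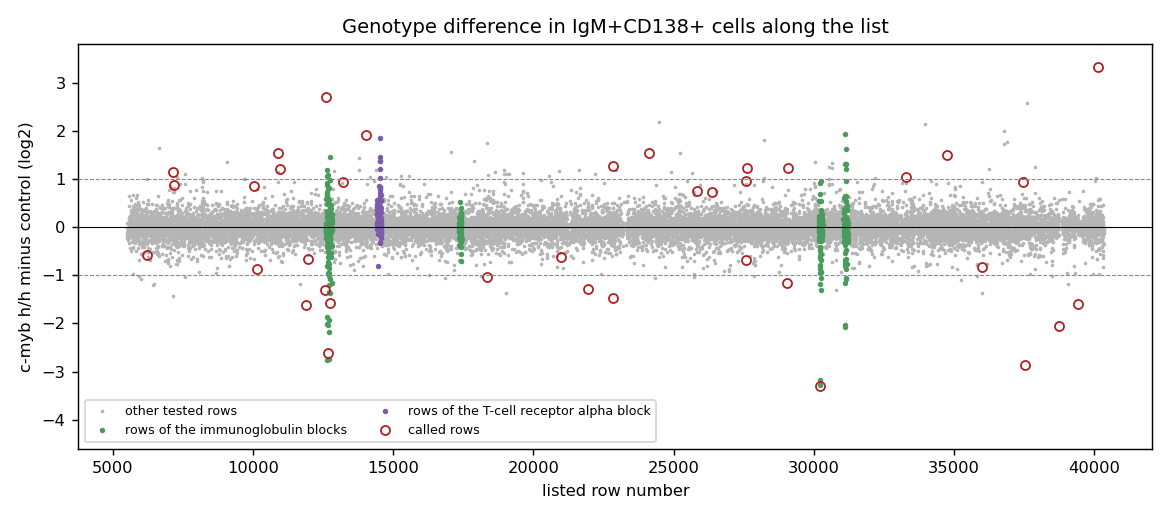
Difference between genotypes in IgM+CD138+ cells (c-myb h/h minus control, log2) for each of 19350 tested rows against its listed row number, with dashed lines at 2-fold. Red circles mark the 37 called rows, green points the immunoglobulin blocks and purple points the T-cell receptor alpha block; the green columns spread past the dashed lines on both sides, further downward than upward.

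The immunoglobulin blocks held a large share of the large differences. Of 132 rows at least 2-fold apart between genotypes (0.682% of the rows tested, 77 of them or 0.398% higher and 55 or 0.284% lower), 36 lay in the 4 blocks, that is 8.80% of the 409 block rows tested against 0.507% of the 18941 other rows. Of these 36, 26 were lower and 10 higher in c-myb h/h cells, whereas outside the blocks 29 were lower and 67 higher. The heavy chain block held 15 lower and 5 higher, the first kappa block 6 lower and 0 higher, the second kappa block 5 of each, and the lambda block 0. Most rows of the blocks were close between genotypes, with a median difference of -0.02 log2. Without both replicate 1 arrays 216 rows were at least 2-fold apart, 41 of them in the blocks. Their split by direction is not given here. Some lower rows rested on c-myb h/h replicate 1, such as row 31153 at 9.59, with 13.18 and 12.82 on replicates 2 and 3 and 12.62 to 13.33 in control. In others, such as row 12651, c-myb h/h replicate 1 was the highest of its group, at 7.74 against 4.94 and 5.04. The blocks were set after the values had been seen, and no test was made of the shares.

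With all arrays few of these rows were called, and many also differed between mice of one genotype. The number of called rows in the 4 blocks was 4, and 17 without both replicate 1 arrays. In 49 of the 409 block rows the arrays of one genotype ranged over more than 2 log2, which is 12.0%, compared with 0.575% of the other rows. Row 30217 in the first kappa block read 11.03, 3.98 and 8.55 on control replicates 1, 2 and 3 and 3.76, 3.51 and 6.80 on c-myb h/h replicates 1, 2 and 3. Control replicate 1 was bright there while control replicate 2 was about as dim as c-myb h/h replicates 1 and 2, and the difference of -3.16 (SE 1.26) was not called (limma adjusted p = 0.378). Row 31115 in the second kappa block read 6.10, 9.03 and 2.50 in control and 4.87, 8.66 and 4.71 in c-myb h/h mice. In row 12652 of the heavy chain block the values were 5.05, 7.29 and 7.99 in control against 5.16, 11.16 and 6.64 in c-myb h/h mice. Both rows show groups that overlap widely.

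The 4 called rows of the blocks were 30222, 12694, 12746 and 12623. Row 30222, in the first kappa block, read 10.05, 10.88 and 11.74 on control replicates 1, 2 and 3 and 7.11, 6.48 and 9.16 on c-myb h/h replicates 1, 2 and 3. The c-myb h/h arrays were all below the control arrays, with replicate 3 the closest, and the difference was -3.30 log2 (SE 0.50, limma adjusted p = 0.0154), a 9.87-fold lower level. Row 30222 had SDs of 0.84 and 1.40 in control and c-myb h/h IgM+CD138+ cells, but 0.14 and 0.07 in B220+CD23+ cells. With the 6 IgM+CD138+ arrays alone its limma adjusted p was 0.483. Its neighbour 30219 was close in size at -3.27, but with control values from 7.69 to 11.30 it was not called (limma adjusted p = 0.170). In B220+CD23+ cells row 30222 was dim in both genotypes, at 6.72 and 6.58 in control and c-myb h/h mice.

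Row 12694, in the heavy chain block, read 7.25, 7.89 and 9.81 in control and 6.18, 5.49 and 5.46 in c-myb h/h mice. Its difference of -2.61 (SE 0.49, limma adjusted p = 0.0476) lost the call without control replicate 2 or without c-myb h/h replicate 2 or 3, with adjusted p up to 0.115. With the 6 IgM+CD138+ arrays alone its limma adjusted p was 0.535. Row 12746 was bright in every array, at 11.65, 11.41 and 11.87 in control and 9.32, 10.44 and 10.47 in c-myb h/h mice. It fell by 1.57 log2 (SE 0.25, limma adjusted p = 0.0186), and c-myb h/h replicate 1 was the lowest. The same row differed by -0.88 and -1.45 in the B220+CD23+ and B220+CD23-IgM+ populations, neither of which was called (limma adjusted p = 0.327 and 0.101).

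Row 12623 went the other way, with 5.54, 5.61 and 4.59 in control and 6.95, 8.34 and 8.56 in c-myb h/h mice. It rose by 2.71 log2 (SE 0.39, limma adjusted p = 0.0116), and replicates 2 and 3 of c-myb h/h mice were the brightest. Row 12627, with a difference of -1.86 (limma adjusted p = 0.0521), and rows 31142 and 31113, at 1.63 and 1.94 (limma adjusted p = 0.0541 for each), lay just outside the threshold. The wider blocks planned at first, 450 rows on each side of an immunoglobulin ID, held 6 called rows, adding 12565 and 13200.

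**Figure D3:**
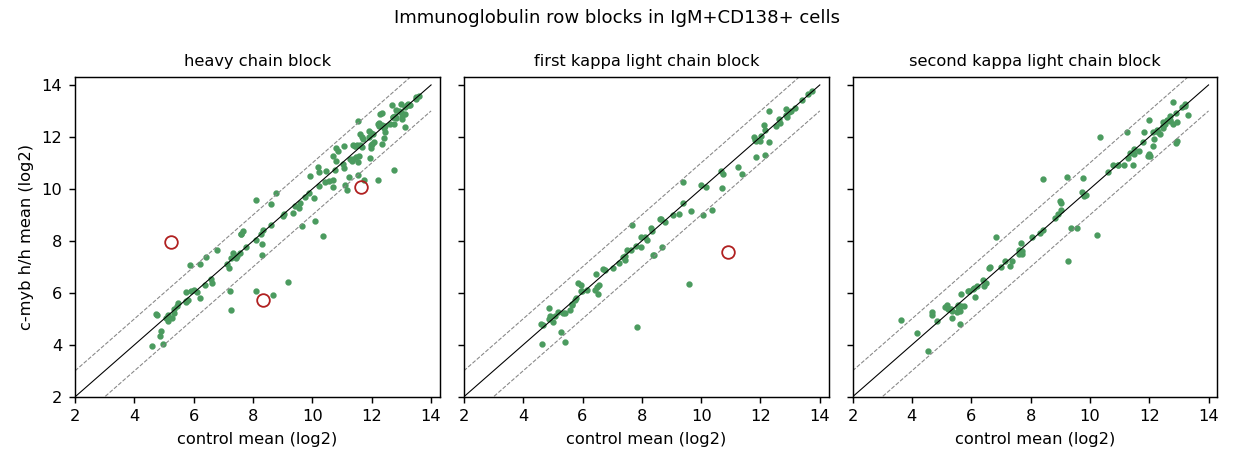
Mean log2 value of each tested row in c-myb h/h against control IgM+CD138+ cells, 3 arrays each, in the heavy chain block and both kappa blocks; the solid line marks equal levels and the dashed lines 2-fold. Most points lie on the line up to values above 12, and the red circles are the 4 called rows, 3 of them lower in c-myb h/h cells.

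The level of the blocks as a whole depended on which rows were taken. Over the 208 rows at the displaced places of the IDs, the median log2 value was 11.15, 11.33 and 11.44 in control and 11.01, 11.04 and 11.28 in c-myb h/h mice. These groups overlap, and the difference was -0.20 (exact permutation test, 2-sided, p = 0.20). Over the 594 rows with values in the blocks widened by 50 rows, dim rows included, the medians were 6.51, 6.64 and 6.55 in control against 6.38, 6.37 and 6.49 in c-myb h/h mice. Here every control array lay above every c-myb h/h array, with a difference of -0.16 (exact permutation test, 2-sided, p = 0.10). That was not so over the 409 tested rows of these blocks, which gave the counts above. Their medians were 8.82, 8.78 and 8.91 in control and 8.53, 8.82 and 9.01 in c-myb h/h mice, and these groups overlap. In the planned test, over all 3643 rows within 450 rows of an immunoglobulin ID, the medians were 5.11 ± 0.03 (SD, n = 3) in control mice and 5.13 ± 0.02 (SD, n = 3) in c-myb h/h mice, with the sign reversed at 0.02 (exact permutation test, 2-sided, p = 0.50). Most of those rows lie outside the loci once the displacement is taken into account. With 3 arrays against 3 the smallest p that this test allows is 0.10.

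The other 33 called rows lay outside the immunoglobulin blocks, and those lower in c-myb h/h cells come first. Row 37520 read 6.20, 3.78 and 6.01 on control replicates 1, 2 and 3 and 2.47, 2.01 and 2.92 on c-myb h/h replicates 1, 2 and 3. Control replicate 2 lay closer to the c-myb h/h arrays than to its own group, and the difference was -2.87 log2 (SE 0.44, limma adjusted p = 0.0163). The SD was 1.35 in control IgM+CD138+ and 0.25 in control B220+CD23+ cells. With the 6 IgM+CD138+ arrays alone the limma adjusted p was 0.483. The 2.44 and 2.08 of this row in control and c-myb h/h B220+CD23+ cells were as low as the c-myb h/h IgM+CD138+ level of 2.46. The call was lost without c-myb h/h replicate 2 (limma adjusted p = 0.0619).

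Row 38736 read 6.13, 7.33 and 6.11 in control and 5.28, 4.26 and 3.84 in c-myb h/h mice. It fell by 2.06 log2 (SE 0.38, limma adjusted p = 0.045), a call lost without control replicate 2 or without c-myb h/h replicate 2 or 3. In B220+CD23+ cells it was bright in both genotypes, at 7.17 and 6.86 in control and c-myb h/h mice. Row 11886 read 5.63, 5.90 and 6.25 in control and 4.01, 4.28 and 4.65 in c-myb h/h mice, with no overlap and a difference of -1.61 (SE 0.19, limma adjusted p = 0.00224). This row and row 18342, which differed by -1.03 (limma adjusted p = 0.0392), were the 2 called rows at least 4-fold lower in control IgM+CD138+ than in control B220+CD23+ cells. The 98 rows of that kind were lowest on the replicate 1 arrays, and averaged 6.19 to 7.01 on c-myb h/h against 6.60 to 7.52 on control arrays, the direction of both calls with overlapping groups. The part of this in the 2 calls was not tested. Without both replicate 1 arrays the differences were -1.61 and -0.99, and both were called. The call of row 18342 was lost without control replicate 2 or 3 or without c-myb h/h replicate 1 or 2.

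Row 22843 was even in control mice, at 6.89, 6.98 and 6.72, and uneven in c-myb h/h mice, at 5.91, 4.60 and 5.64. Its difference was -1.48 (limma adjusted p = 0.022), not called without control replicate 2. Row 12565 read 5.05, 5.26 and 5.84 in control and 4.28, 4.13 and 3.85 in c-myb h/h mice, a difference of -1.30 (limma adjusted p = 0.0112). Row 21959 read 5.59, 6.23 and 5.83 against 4.52, 4.57 and 4.72, a difference of -1.28 (limma adjusted p = 0.0221). The c-myb h/h arrays of row 21959 were nearly equal, and its call was nevertheless lost without control replicate 2 or any single c-myb h/h array. The other called lower rows ran down to a difference of -0.57.

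Among rows higher in c-myb h/h cells, row 40129 rose most. It read 4.96, 3.95 and 3.21 on control replicates 1, 2 and 3 and 7.10, 7.67 and 7.30 on c-myb h/h replicates 1, 2 and 3. The c-myb h/h arrays were close to each other and far above all control arrays, and the difference was 3.32 log2 (SE 0.53, limma adjusted p = 0.0165), a 9.98-fold higher level. Its differences in B220+CD23+ and B220+CD23-IgM+ cells were 0.85 and 1.61, neither called (limma adjusted p = 0.866 and 0.423). The call was lost without c-myb h/h replicate 2 (limma adjusted p = 0.0619).

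Row 14048 read 5.35, 5.94 and 5.44 in control and 7.23, 7.53 and 7.68 in c-myb h/h mice, a difference of 1.90 (SE 0.30, limma adjusted p = 0.0165). Row 10903 read 4.77, 5.29 and 5.19 in control and 6.54, 6.80 and 6.55 in c-myb h/h mice. It rose by 1.55 (SE 0.18, limma adjusted p = 0.00224) and kept its call whichever of the 6 arrays was left out. Row 24129 read 5.50, 5.12 and 5.14 in control and 6.78, 7.03 and 6.58 in c-myb h/h mice, a difference of 1.54 (limma adjusted p = 0.0165). In these 3 rows the gap between the genotypes was wider than the range within either. Row 14048 was not called once c-myb h/h replicate 2 or 3 was left out, nor row 24129 without replicate 2 of either genotype.

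Row 34738 read 5.89, 6.78 and 6.12 in control and 7.24, 8.14 and 7.90 in c-myb h/h mice, a difference of 1.5 (limma adjusted p = 0.0197). In row 22835 control mice had 6.90, 7.13 and 6.86 and c-myb h/h mice 7.70, 8.64 and 8.33, a difference of 1.26 (limma adjusted p = 0.0392). Row 27612 read 7.18, 7.35 and 6.80 against 8.0, 8.55 and 8.47, a difference of 1.23 (limma adjusted p = 0.0282). In all 3 of these rows c-myb h/h replicate 1 was the lowest of its group. Row 29086 read 7.29, 6.35 and 6.78 in control and 8.21, 7.94 and 7.93 in c-myb h/h mice, a difference of 1.22 (limma adjusted p = 0.0282), and it was dim in B220+CD23+ cells at 4.0 and 3.90. Row 10983 read 4.99, 5.46 and 4.97 against 6.34, 6.66 and 6.07, a difference of 1.22 (limma adjusted p = 0.0094). Row 34738 was not called without c-myb h/h replicate 2 or 3, nor row 27612 without either of these or control replicate 3. Rows 22835 and 29086 each lost the call without 5 of the 6 arrays, keeping it without c-myb h/h replicate 1 and control replicate 1 respectively. The other called higher rows had differences down to 0.74.

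**Figure D4:**
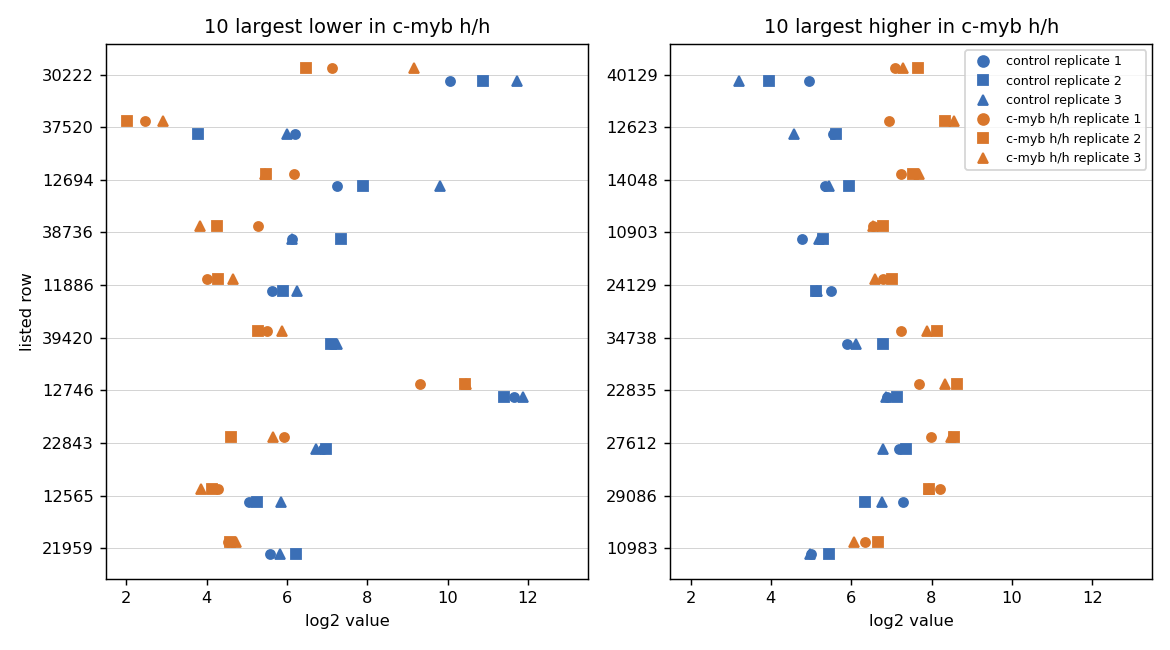
Log2 value on each IgM+CD138+ array for the 10 called rows with the largest lower and the 10 with the largest higher values in c-myb h/h cells, by listed row number; blue is control, orange c-myb h/h, and the symbol gives the replicate. In each row the 3 orange points lie on one side of the 3 blue points, with the widest scatter in rows such as 30222 and 37520.

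Some called rows were close neighbours on the list, and such neighbours changed in opposite directions or in the same direction. Rows 22835 and 22843 lay 8 rows apart and changed in opposite directions, by 1.26 and -1.48. Rows 27577, 27587 and 27612 lay within 35 rows of each other and differed by -0.68, 0.96 and 1.23. Rows 7160 and 7190, 30 rows apart, were both higher, by 1.15 and 0.87.

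Leaving out single arrays, 13 of the 37 rows were called in all 6 of those fits. They were rows 30222, 11886, 39420, 12746, 12565, 10164, 35993 and 21002 among the lower ones and 10045, 37447, 10983, 10903 and 12623 among the higher ones. The array whose absence ended most calls was c-myb h/h replicate 2, without which 15 of the 37 remained, whereas 32 remained without c-myb h/h replicate 1 and 31 without control replicate 1.

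One further run of rows at least 2-fold apart lay at the T-cell receptor alpha locus, which is rearranged in T cells and not in B-lineage cells. Its 19 IDs lay at rows 14515 to 14677, and their displaced place was rows 14419 to 14580. Of 97 tested rows there, 6 were at least 2-fold higher in c-myb h/h cells and 0 lower, all 6 within rows 14527 to 14547, and 75 of the 97 (77.3%) had a difference above 0, against 50.8% of all tested rows. Without control replicate 1 this count of 6 was 4, and without control replicate 3 it was 10.

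The mean log2 level of those 97 rows was 5.99, 5.92 and 6.36 on control replicates 1, 2 and 3 and 6.25, 6.32 and 6.51 on c-myb h/h replicates 1, 2 and 3. Control replicate 3 lay within the c-myb h/h range, so the groups overlap. The B220+CD23+ group means were 5.95 and 5.98 in control and c-myb h/h mice, and those of B220+CD23-IgM+ cells 5.88 and 5.92. Row 14531 read 5.11, 5.66 and 6.75 in control and 7.31, 7.95 and 7.78 in c-myb h/h mice, a difference of 1.84 (limma adjusted p = 0.0659). It was not called, and 0 rows of the block were, while 19 (19.6%) had an unadjusted p under 0.05, against 10.6% of all tested rows. The part of T-cell RNA in the genotype differences of other rows was not tested. A block paired with NK-cell receptors held 3 tested rows, 0 of them 2-fold apart.

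Some large differences outside the receptor loci rested on uneven control arrays. Of the 90 rows at least 2-fold apart outside the immunoglobulin and T-cell receptor alpha blocks, 70 were not called, and in 31 the arrays of the genotypes overlapped. Row 37599 read 8.5, 4.03 and 6.54 on control replicates 1, 2 and 3 and 9.31, 9.76 and 7.76 on c-myb h/h replicates 1, 2 and 3. Row 24469 read 9.44, 4.78 and 7.14 against 9.79, 9.91 and 8.18, and row 36779 read 9.73, 5.26 and 7.84 against 10.15, 10.51 and 8.18. In these 3 rows control replicate 2 was lowest and control replicate 1 lay near the c-myb h/h arrays, and differences of 2.59, 2.17 and 2.0 were not called (limma adjusted p = 0.606, 0.697 and 0.696). Of 85 rows outside the immunoglobulin blocks that ranged over more than 2 log2 among control arrays, control replicate 1 was lowest in 45 and replicate 2 in 30. Control replicate 3 was highest in 52. The order seen in rows 37599, 24469 and 36779, replicate 1 over 3 over 2, was that of 14 of the 85. The commonest order was replicate 3 over 2 over 1, in 36.

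The called rows were then set beside the same rows in the other populations, which were measured on other arrays. The sign of the difference was shared by 28 of the 37 in the B220+CD23+ population and by 30 in the B220+CD23-IgM+ population, against 52.9% and 53.7% of all tested rows. The 19 higher rows had median differences of 1.22 in IgM+CD138+, 0.31 in B220+CD23+ and 0.68 in B220+CD23-IgM+ cells. The 18 lower rows had medians of -1.29, -0.23 and -0.19 in that order. Medians in IgM+CD138+ cells are of rows chosen there for their size. The labels do not say whether equal numbers mark one mouse, so the populations need not be independent.

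In B220+CD23+ cells 3 of the 37 rows were also called, where 0.134% of all rows were, and in B220+CD23-IgM+ cells 2, where 0.0413% were. The populations share one spread per row in the fit, so a row of low spread is more easily called in each. Row 39420 was called in all 3 populations. It read 7.10, 7.09 and 7.24 in control and 5.49, 5.29 and 5.87 in c-myb h/h IgM+CD138+ cells. In B220+CD23+ cells the values were 7.61, 7.93 and 7.32 against 6.20, 6.28 and 6.24, and in B220+CD23-IgM+ cells 8.0 and 8.40 against 5.86, 6.14 and 5.92. No c-myb h/h array reached a control array in any population, and the differences were -1.59, -1.38 and -2.23 in that order (limma adjusted p = 0.00171, 0.00356 and 8.7e-05). Its displaced place on the list falls among IDs of the Y chromosome, to which 31 of the 33 symbols found there belong. That names a stretch of the list and not a gene. Of the 37 called rows, this 1 had its displaced place on the Y chromosome and 1, row 38736, on the X chromosome. Another 6 were placed on chromosome 12, 3 of them in the heavy chain block. The share of all tested rows on each chromosome was not counted, so these counts cannot be read as many or few. The labels state no sex, and a difference in sex between the groups was not tested.

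Row 21002 was bright, at 10.94, 10.79 and 10.73 in control and 10.19, 10.26 and 10.17 in c-myb h/h IgM+CD138+ cells. Its differences were -0.61 there and -0.73 in B220+CD23+ cells, both called (limma adjusted p = 0.0154 and 0.00444), and -0.38 in the third population (limma adjusted p = 0.202). Row 29043 read 7.93, 8.71 and 8.18 against 6.98, 7.08 and 7.25, and differed by -1.17, -1.25 and -1.04 in the 3 populations, of which the last was not called (limma adjusted p = 0.102). Row 26382 was higher, at 8.55, 8.30 and 8.08 in control and 9.01, 9.14 and 9.0 in c-myb h/h mice. Its differences were 0.74 in IgM+CD138+ and 1.01 in B220+CD23-IgM+ cells, both called, and 0.42 in B220+CD23+ cells. In IgM+CD138+ cells the call of row 26382 was lost without replicate 2 or 3 of either genotype, and that of row 29043 without c-myb h/h replicate 2.

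The other 33 rows were called in IgM+CD138+ cells alone, which does not show that they differ between populations. The difference between genotype effects, tested by limma across all 19350 rows, was past the threshold in 0 rows against B220+CD23+ cells (0.0% of rows, with 1303 at an unadjusted p under 0.05). It was also past the threshold in 0 rows against B220+CD23-IgM+ cells (0.0%, with 1375 at an unadjusted p under 0.05). Without both replicate 1 arrays these counts were 5 and 3. The lowest limma adjusted p was 0.0795 against B220+CD23+ cells, at row 12565, which differed by -1.30 in IgM+CD138+ and 0.54 in B220+CD23+ cells, and 0.404 against B220+CD23-IgM+ cells.

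**Figure D5:**
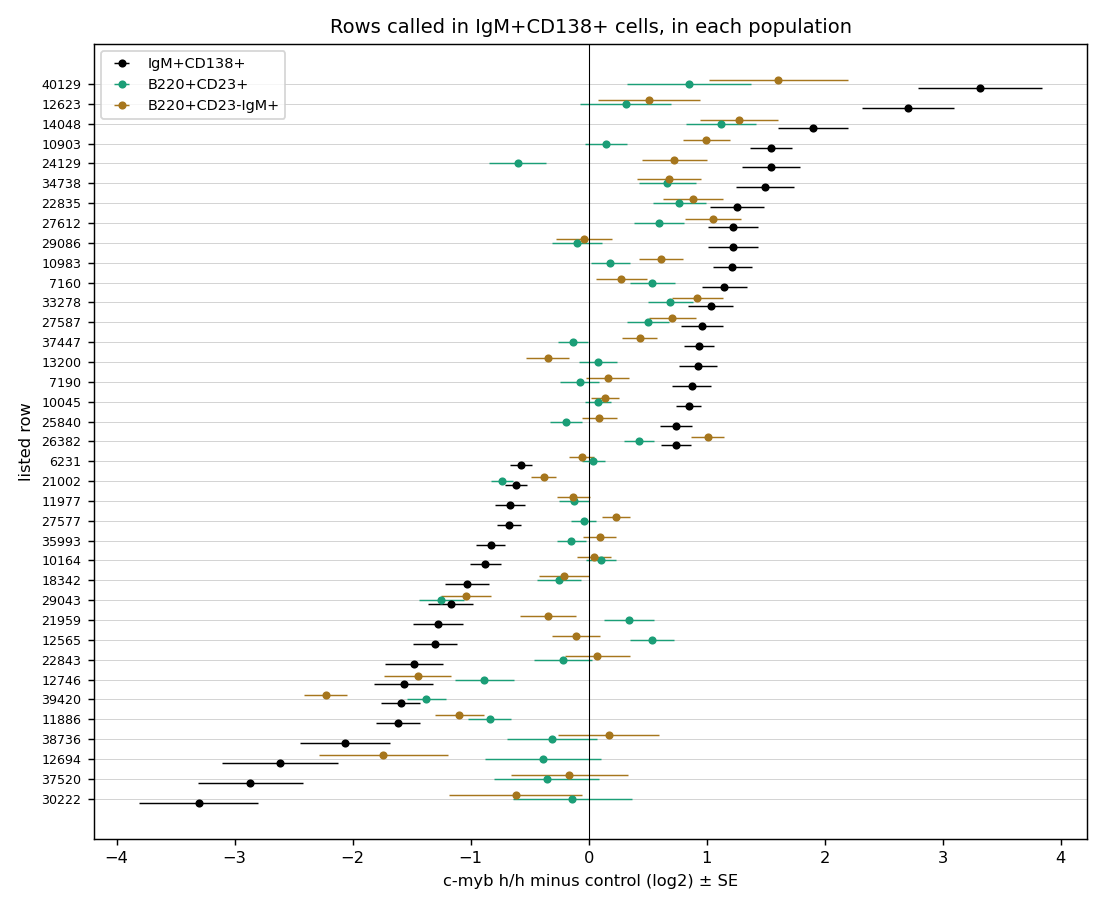
Difference between genotypes (c-myb h/h minus control, log2, with SE) in each of 3 populations for the 37 rows called in IgM+CD138+ cells, ordered by the difference there. Row 39420 is far below 0 in all 3 populations, whereas rows such as 30222 and 37520 are far below 0 in IgM+CD138+ cells and near 0 in B220+CD23+ cells.

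The targeted gene could be looked for only as a stretch of the list. The displaced places of the IDs paired with Myb were rows 7444 and 8289. Within 50 rows of these, 49 and 44 rows were tested and 0 were called in any population. The lowest differences in IgM+CD138+ cells were -0.58 (SE 0.31, limma adjusted p = 0.553) and -0.46 (SE 0.27, limma adjusted p = 0.594). The highest were 0.89 and 0.55, and the lowest limma adjusted p of any row was 0.0603 in the first stretch and 0.284 in the second. The genotype labels were therefore not checked by the targeted gene.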

How the data were processed

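Each sample was biotin-labelled RNA of cells sorted from spleen, read on its own array, according to the labels' protocols. The authors deposited log2 values, for which the submitters' processing notes name RMA. No source used here says whether the 17 arrays were normalized as one set. Of 41801 listed rows, 33327 held values in every array and the rest were blank. Rows above the 50th percentile of their array in at least 2 arrays (19350) were tested 2-sided with limma 3.58.1 (R 4.3.3), with one mean per group in a fit of all 17 arrays and 11 residual degrees of freedom. P-values were adjusted by Benjamini-Hochberg and called under 0.05. The fit was also run on simulated data with independent normal noise and the same spread in all populations. Rows that vary mainly in IgM+CD138+ cells do not meet that setting, so the simulation cannot vouch for their calls. Gene symbols come from the platform annotation. The displacement was the best of 601 tried in steps of 5 rows. Precision is limited by the number of arrays, and nothing but the design text says that replicates are separate mice. The comparison, the row blocks and the rules were chosen with earlier results of these data known. Rows named are, of the called rows without overlap, up to 10 with the largest change upward and downward, called rows in immunoglobulin blocks and rows called in a further population; the other rows named, the T-cell receptor alpha block and the narrow blocks were chosen after their values were seen. Lists of single marker genes were not used, since names could not be tied to rows. Figures were drawn with matplotlib 3.10.9.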

Additional observations from a re-analysis of the deposited data

How the results depend on the processing

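The count of 37 calls in IgM+CD138+ cells became 13 with ordinary least squares (11 of them among the 37), 0 with the compared arrays alone, 0 when 1.5-fold was required (78 rows had an unadjusted p under 0.05 there) and 98 without both replicate 1 arrays. Leaving out single arrays gave 27 to 83. Control and c-myb h/h arrays of the same number come from different mice, so the numbers were not taken as pairs. Deviations from the group means correlated at 0.17, 0.01 and 0.12 for replicates 1, 2 and 3. Between arrays of unlike number they correlated at -0.16 to 0.045. Replicates 1 and 3 of the genotypes thus shared part of their deviation. With the replicate number as a block the count was 70 (44 higher, 26 lower), and 0 with that block and the compared arrays alone. All 37 differences kept their sign under every alternative run, and 22 of the 37 were tested with the 75th percentile filter. The kept signs are no support for the calls. In these rows the genotypes do not overlap, so leaving out arrays could not reverse a sign. Most other fits leave the difference itself unchanged. The 26 calls in B220+CD23+ cells became 44 with trend and robust moderation, 10 with ordinary least squares, 130 with array weights, 44 with the replicate block and 0 at 1.5-fold, and 4 to 50 without single arrays. The 8 in B220+CD23-IgM+ cells became 22 with array weights, 18 with trend and robust moderation, 0 with the compared arrays, 25 with the replicate block and 1 at 1.5-fold, and 1 to 52 without single arrays. The 0 rows whose genotype effect differed between IgM+CD138+ and B220+CD23+ cells became 2 with trend and robust moderation, 1 with ordinary least squares, 1 with array weights, 5 without both replicate 1 arrays and 0 to 5 without single arrays. Against B220+CD23-IgM+ cells the 0 became 3 without both replicate 1 arrays and 0 to 2 without single arrays. The 132 rows at least 2-fold apart became 216 without both replicate 1 arrays and 148 to 186 without single arrays, and the 36 in the immunoglobulin blocks 37 to 49. The level of those blocks reversed from 0.02 as planned to -0.20 at the displaced places and -0.16 with 50 rows added, and was 0.0021 to 0.030 without single arrays. The alternatives for the B220+ populations, for the 2-fold counts, for the widened blocks and for the block with the compared arrays were chosen after seeing the data. The cause was not tested.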
